A study of Homo sapiens with 3 samples.

Results

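The comparison described here sets floating spheres, collected after 5 days of transforming growth factor beta 1 (TGF-beta1), against untreated adherent cells of MNNG/HOS, an established human osteosarcoma line. It rests on 2 of the 3 arrays of the study, all 45033 probe sets and the 17185 genes that could be named from them, and it was chosen by the sample labels and not by any measured value. Cells were grown in DMEM/F12 without serum, the spheres that formed on their own within 5 days were removed, and the residual adherent cells were divided. The untreated group was kept for 5 days with no added factor and harvested as adherent cells. The sphere group received 5 days of TGF-beta1, dosed at 4 ng/mL, and only the material that had floated off was collected, which the submitters abbreviate as iOSCs. A culture treated at the same dose for 3 days, called mesophase, is given beside these values where it helps to read them. That culture lasted 3 days against 5 for the other groups. The labels do not say whether it was collected as adherent cells, spheres or both, so its fraction may differ from either group. Each group was 1 culture of 1 cell line on 1 single-colour array. Treatment and the floating or adherent state differed together between the groups, so their contributions cannot be told apart. In such bulk RNA a lower share of cells with a transcript and less transcript per cell cannot be told apart either.

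TGF-beta1 is a secreted ligand that binds a type II receptor, which activates a type I receptor, and the type I receptor phosphorylates SMAD2 and SMAD3. These join SMAD4, enter the nucleus and act with other transcription factors on genes of the extracellular matrix, of the cytoskeleton and of feedback inhibition. Sarcospheres are floating colonies that tumour cells form when they cannot attach or do not stay attached, and the ability to form them is used as an assay for cells with stem-like properties. In bone-forming cells TGF-beta is known for promoting matrix production at early stages and for restraining late differentiation.

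Values are RMA intensities on a linear scale, and a log2 difference is always spheres minus untreated. With 1 array a side there is no replicate error, no test and no p-value, so genes are described by a fixed size of 2-fold and differences could not be set against a spread between cultures. A gene counted over the whole array had to reach an intensity of 685 on at least 1 of the 2 arrays, the median of all gene values, called the level filter below. Of 9040 such genes 346 (3.83%) were at least 2-fold higher in spheres and 395 (4.37%) at least 2-fold lower, while 7088 (78.4%) lay within 1.5-fold. Over all 17185 genes, with no filter, 4.90% were higher and 5.00% lower, which is the background for the gene lists, whose members are all counted. The median log2 difference of all genes was 0.0059, and a list is read against that value. No list was tested, and the members of a list share 2 arrays and are not replicates of a condition.

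**Figure D1:**
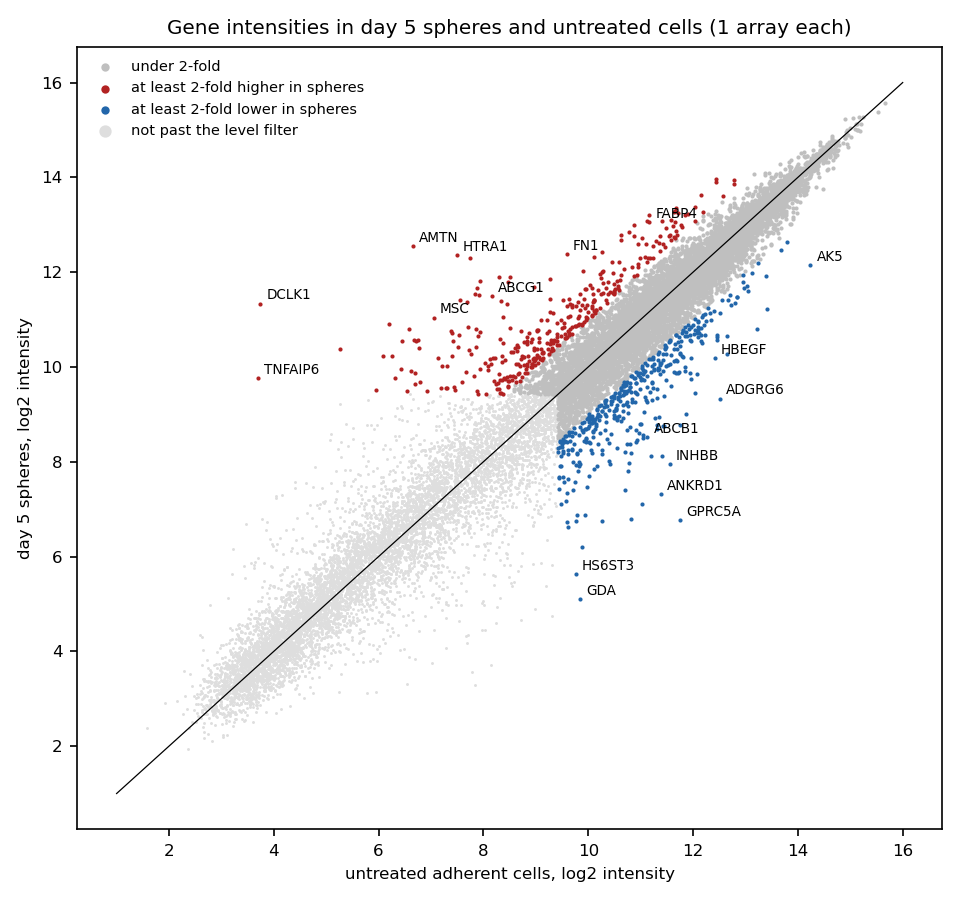
Each point is a gene, placed by its log2 intensity in untreated cells (x axis) and in day 5 spheres (y axis), with the line of equality. Among genes that reached the level filter, red marks those at least 2-fold higher (346) and blue those at least 2-fold lower (395) in spheres, and DCLK1 lies farthest above the line.

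Folds depended on the level of the gene. When genes were ordered by mean level and divided into 10 equal classes, 3.61% of the dimmest class were past 2-fold, 20.1% of the fourth class, around an intensity of 162, and 0.524% of the brightest. The share therefore peaked at intermediate intensities and not at the lowest ones. In the lowest quartile of gene values, under an intensity of 62.4, the part of the signal that is background is unknown. Of the 741 genes counted above 6 had their lower value there. A counted gene reached 685 on 1 array, so this takes a difference of more than 10-fold. At least 10-fold higher were 30 genes and at least 10-fold lower 9, so the filter itself keeps the number small. It does not show that folds are free of background. Of 1349 genes measured by several probe sets, 52 were past the filter and past 2-fold, with a median spread of 0.22 in log2 between the probe sets of a gene. Probe sets of a gene share the same RNA and array, so they check the probes and not the cultures.

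**Figure D2:**
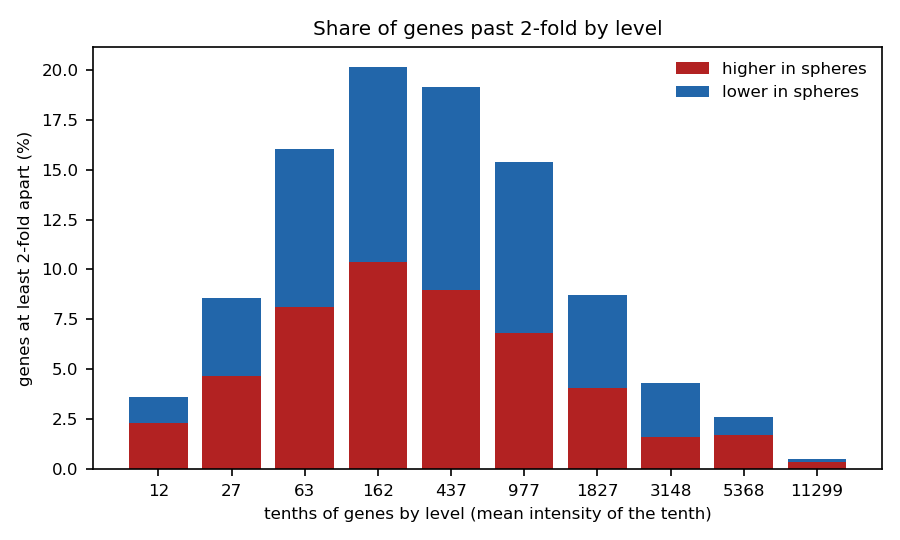
Bars give the percentage of genes at least 2-fold higher (red) or lower (blue) in spheres, for 10 equal classes of genes ordered by mean level, labelled with the mean intensity of the class. The share is highest in the fourth class, at 20.1%, and lowest in the brightest, at 0.524%.

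Markers of the bone lineage were present in part. Of the osteoblast markers, RUNX2, the bone-forming lineage's transcription factor, was at 4000.2 untreated and 3246 in spheres. The mesenchymal filament gene VIM was bright at 15058 and 15362. The bone matrix genes SPP1, which encodes osteopontin, and SPARC, which encodes osteonectin, read 3436 and 10664 untreated and 3489 and 17393 in spheres. Other bone markers lay in or near the lowest quartile in both groups, the alkaline phosphatase gene ALPL at 45.8 and 76.4, SP7 at 54.8 and 47, and the bone sialoprotein gene IBSP at 52.6 and 31.3.

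The highest differences in spheres fell on genes of neuronal adhesion and synapses, of enamel, of gonadotropin subunits and of secreted matrix. DCLK1, a microtubule-associated kinase gene used as a marker of tuft cells and of some tumour stem cells, read 13.4 untreated, 23.4 at day 3 and 2588 in spheres, a log2 difference of 7.59. It was high on the sphere array alone, and since the other readings lie among the dimmest values its fold is uncertain in size, with 5.10 in log2 when 64 was added to each intensity. AMTN, which encodes the enamel protein amelotin, read 101 untreated, 543 at day 3 and 5960.4 in spheres, 59.1-fold above untreated cells. ODAPH, an odontogenesis-associated phosphoprotein gene, read 87.0, 134 and 1500.2 in the same order. HTRA1, a secreted serine protease gene, was 29.4-fold higher, from 179 to 5267, with a still higher 7093 at day 3.

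Genes of cell-surface leucine-rich repeat proteins, which mediate adhesion and guidance of neurites, stood among the top 20. FLRT2 went from 215 to 5024, 23.4-fold. LRFN5 was 17.8-fold higher at 1200.4, and SLITRK6 14.4-fold at 1504. SYNDIG1, a synapse differentiation gene, was 26.1-fold higher, with 73.8 untreated, 199 at day 3 and 1928 in spheres. All of them read 215 or less in untreated cells, under the level filter.

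The CGB genes and LHB, which encode beta subunits of gonadotropin hormones, formed another group. CGB8 was 14.8-fold higher, with 245 untreated, 983 at day 3 and 3625 in spheres, and CGB3 12.3-fold, with 240.2, 886 and 2953. LHB, the luteinizing hormone subunit, followed at 13.1-fold. The other measured CGB genes were CGB1 at 9.99-fold, CGB5 at 7.12-fold, CGB7, which went from 168 to 1686, and CGB2. The 5.01-fold of CGB2 lay between dim readings, 18.7 untreated and 93.7 in spheres, both under the level filter. These genes are near-identical copies in 1 cluster, so their probe sets can share signal and their values do not count as separate observations.

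Transcription factor, adhesion and signalling genes were also among the top 20. MSC, a basic helix-loop-helix repressor called musculin, was 15.9-fold higher, from 132 to 2105. EYA2, a transcriptional co-activator with phosphatase activity, was 14.1-fold higher at 1522. The cadherin gene CDH3 was 14.4-fold higher, with 188 untreated, 390.1 at day 3 and 2713 in spheres. MFAP4, of elastic microfibrils, was 15.9-fold higher and DNAJC12, a co-chaperone gene measured by 2 probe sets, 18.6-fold. MYL10, CHRNA9 and PROC, which encode a myosin light chain, an acetylcholine receptor subunit and protein C, read 1334, 3267 and 2635 in spheres against 38.5, 234 and 205 untreated and each read still higher at day 3, at 2950.4, 5014 and 8109.7. TNFAIP6, a hyaluronan-binding gene, read 12.9 untreated, among the dimmest values, and 866 in spheres.

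**Figure D3:**
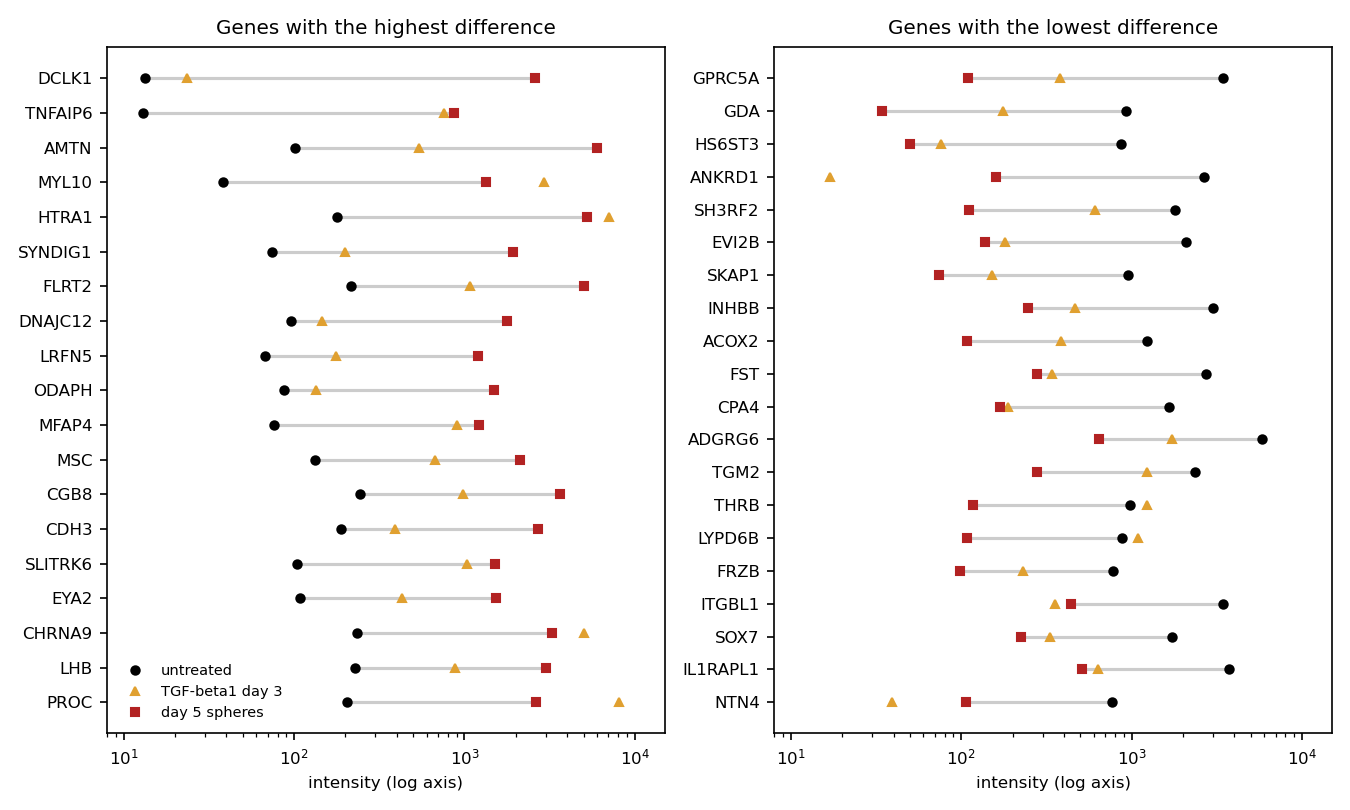
Intensities on a log axis of the genes reported from the 20 highest (left) and the 20 lowest (right) differences past the level filter, for untreated cells (black circles), day 3 (orange triangles) and day 5 spheres (red squares), with a grey line from untreated to spheres. Day 3 lies between the ends for most genes, while MYL10, HTRA1, CHRNA9, PROC, ANKRD1, ITGBL1 and NTN4 read beyond the sphere value at day 3 and THRB and LYPD6B above the untreated value.

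Among the lowest differences were receptors, activin genes and enzymes. GPRC5A, an orphan receptor gene induced by retinoic acid, read 3459 untreated, 381 at day 3 and 109 in spheres, 31.7-fold under untreated cells. GDA, the guanine deaminase gene, was 26.9-fold lower at 34.3, a reading in the lowest quartile. ANKRD1, a cardiac ankyrin repeat gene and a target of YAP and TEAD, was 16.8-fold lower, with 2674 untreated, 17.0 at day 3 and 159 in spheres. ADGRG6, an adhesion G protein-coupled receptor gene, was 9.08-fold lower, from 5849 to 644, with 1723 at day 3. The heparan sulfate sulfotransferase gene HS6ST3 was 17.5-fold lower at 49.7, the peroxisomal oxidase gene ACOX2 11.4-fold at 108 and the carboxypeptidase gene CPA4 9.77-fold at 169.6. The adaptor genes SH3RF2 and SKAP1 were 16.2-fold and 12.8-fold lower.

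Some low genes were at or above their untreated value at day 3 and low in the spheres. THRB, a thyroid hormone receptor gene, read 975 untreated, 1229.7 at day 3 and 117 in spheres. LYPD6B, a gene of the Ly6 family, read 874, 1094 and 108. The Wnt antagonist gene FRZB and the transcription factor gene SOX7 were already lower at day 3, with 229 and 331, and read 98.7 and 223 in spheres. EVI2B, ITGBL1 and IL1RAPL1 were 15.1-fold, 7.84-fold and 7.29-fold lower.

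Folds between higher intensities are less open to background, so the 8145 genes at or above the median level on both arrays were read separately. There 156 genes were at least 2-fold higher and 184 lower. FN1, the fibronectin gene, led those named by the rule, from 771 to 5322, as the mean of 2 probe sets. These probe sets were both higher in spheres but differed in size, at 1.99 and 3.58 in log2, so the fold of FN1 is uncertain. The median level was required of the gene's mean and not of each probe set, so background in either is not excluded. CRIP2, a LIM domain gene, was 4.49-fold higher at 5489, and RAB33A, a small GTPase gene, 4.34-fold at 4167. SPHK1, which makes the lipid signal sphingosine 1-phosphate, was 4.17-fold higher, with 2278 untreated, 2833 at day 3 and 9495 in spheres. DSE, a dermatan sulfate epimerase gene, went from 2237 to 8662. The junctional adhesion gene JAM2 was 3.48-fold higher, CRABP1, a retinoic acid carrier, 3.36-fold and CLYBL, a mitochondrial lyase gene, 3.26-fold.

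The lower genes of this class included KRT81, a hair keratin gene, which read 4198 untreated, 10442 at day 3 and 695 in spheres, 6.04-fold below untreated cells although day 3 lay above them. Hair keratin genes are similar to each other and can share signal. AK5, an adenylate kinase gene, read 19327, 5712 and 4568. NEXN, an actin-binding gene, was 5.31-fold lower and PTX3, the secreted pentraxin of innate immunity, 5.17-fold, from 6381 to 1233. MEST, an imprinted gene, read 5879.9 at day 3 against 5615 untreated and 1517 in spheres. PLK2, a stress-linked kinase, was 3.77-fold lower and the anion exchanger gene SLC4A2 3.43-fold. ANXA3, PRDM8, RBMS2, PLAAT3, DMRT2, CCDC14 and CCDC85B were lower by 3.42-fold to 4.67-fold.

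**Figure D4:**
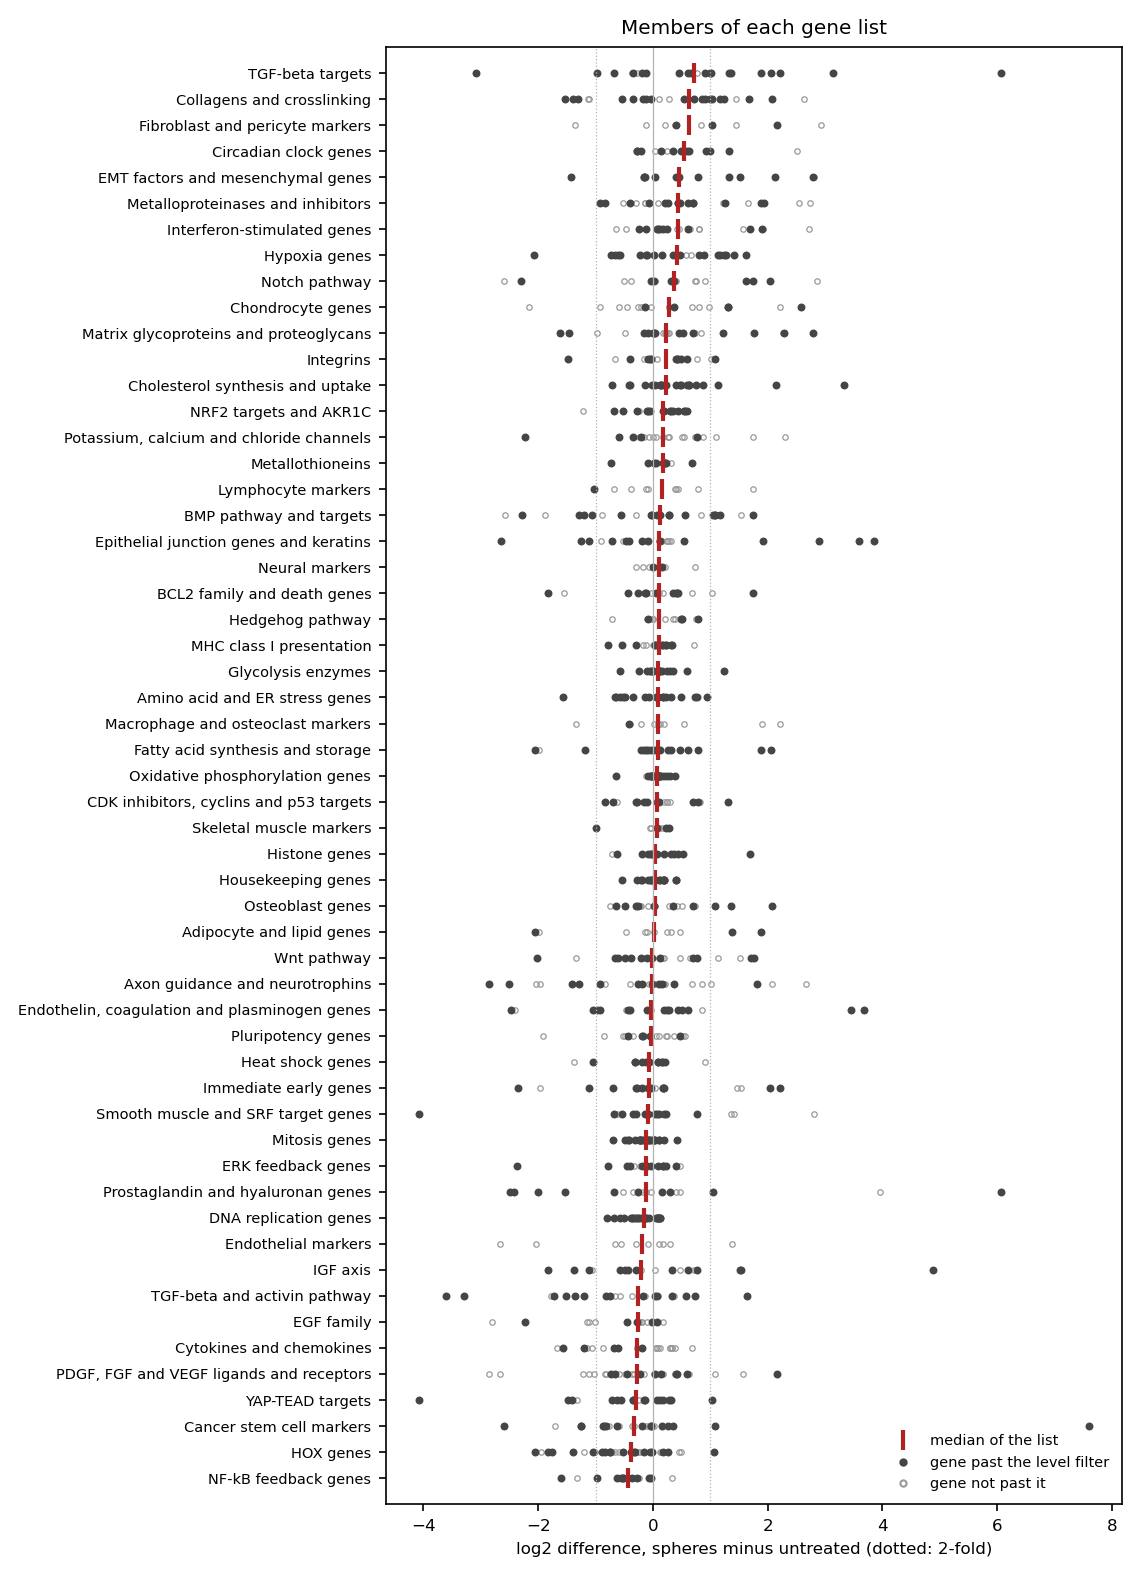
Each row is a gene list and each circle a member, placed by its log2 difference, spheres minus untreated, with filled circles past the level filter and a red bar at the median of the list. Lists are ordered by median, from NF-kB feedback genes at -0.43 to TGF-beta targets at 0.71, and dotted lines mark 2-fold.

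The TGF-beta and activin pathway itself was lower in more members than it was higher, whereas more of its target genes were higher than lower. Against backgrounds of 4.90% higher and 5.00% lower over all genes, 24 measured ligands, receptors, SMADs and antagonists split unevenly: 7 were at least 2-fold lower and 1 higher, with a list median of -0.26 in log2. Among ligands, the activin subunits differed in opposite directions. INHBA was 3.11-fold higher, with 3188 untreated and 9925 in spheres, while INHBB was 12.2-fold lower, with 3005 and 246. The activin-binding antagonist FST, measured by 2 probe sets, went from 2718 to 278. The growth differentiation factor gene GDF15, a stress-induced ligand, was 3.30-fold lower in spheres at 660.2, although day 3 read 3753 against 2181 untreated. TGFB2 was 3.41-fold lower at 105, not past the level filter, and TGFB1 read 5454 and 9074. LTBP1, which stores latent TGF-beta in the matrix, was 2.87-fold lower, from 2366 to 823. Receptor genes TGFBR1 and TGFBR2 differed by 0.03 and -0.17 in log2, and the co-receptor TGFBR3 was 2.29-fold lower. Of the signalling SMADs, SMAD3 was 2.57-fold lower, from 7296 to 2843.

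Of 22 known TGF-beta targets 8 were at least 2-fold higher and 1 lower, at a median of 0.71. The feedback inhibitors SMAD7 and PMEPA1 read 2264 and 8073 in spheres, against 1122 and 3138 untreated, and the log2 difference of SMAD7, 1.01, was 0.97 with 64 added. NEDD9, a scaffold of focal adhesions, was 8.82-fold higher, with 185, 780.5 and 1633 over the 3 arrays. ADAM19, a membrane metalloprotease gene, was 3.71-fold higher, from 1865 to 6923. JUNB, an AP-1 subunit, was 4.63-fold higher. TGM2, which crosslinks proteins and was on the list as a target, read 2346 untreated, 1224 at day 3 and 278 in spheres and was the list's only member past 2-fold in the lower direction. The list was drawn up with earlier results of these arrays known, so its direction is no independent evidence.

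Genes of bone morphogenetic protein (BMP) signalling, which runs through SMAD1, SMAD5 and SMAD9 and opposes TGF-beta in many cells, went both ways. The 25 listed genes included 7 at least 2-fold higher and 6 lower, and the median was 0.12. The ligand genes differed in direction, BMP7 at 2.24-fold higher, from 1978 to 4431, and BMP4 at 2.09-fold lower, from 1678 to 801, where day 3 had read 3051. SMAD1 was 2.07-fold higher at 6718, and the inhibitory SMAD6 4.86-fold lower at 229. Of the secreted BMP antagonists GREM1 was 2.12-fold higher, at 14890.4, and NOG 2.44-fold lower, at 419.7. Among targets, ID4 and ATOH8 were 6.01-fold and 3.68-fold lower, not past the level filter, ID3 2.30-fold lower and ID1 read 20913 and 14169.7.

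Matrix genes were higher for collagen chains and prolyl hydroxylases and lower for several crosslinking enzymes. Of 26 genes in that list 8 were at least 2-fold higher, 5 of these above the filter, and 5 lower, at a median of 0.63. COL1A1 read 1755 untreated, 10781 at day 3 and 7408 in spheres. COL6A2, a chain of the beaded-filament collagen VI, was 3.21-fold higher, from 3255 to 10437. COL12A1, of the fibril-associated collagens, was 2.90-fold lower, from 2221 to 767. The lysyl oxidase-like genes LOXL1 and LOXL3 were lower as well, at 1902 against 4702 and 996 against 2617, while LOX itself read 1418 and 1304. With 64 added to each intensity the list median was 0.23.

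Of 28 matrix glycoproteins and proteoglycans 5 were at least 2-fold higher and 2 lower, at a median of 0.23. The large proteoglycan gene VCAN was 3.37-fold higher, with 439.6, 1047 and 1483 over the 3 arrays. BGN, a small proteoglycan, was 4.88-fold higher at 1548. A pair of elastic fibre genes differed the other way. FBN1, which encodes fibrillin 1, was 3.07-fold lower, from 882 to 288, and EFEMP1 2.75-fold lower, from 7148 to 2596. DPT, the dermatopontin gene, illustrates a day 3 value that did not recur, with 28.2 untreated, 2233 at day 3 and 136 in spheres. Of 25 proteases and inhibitors 7 were at least 2-fold higher, 3 of these above the filter, and 0 lower, and MMP13 read 273, 1807 and 1045.

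Adhesion genes differed in both directions. Of 25 epithelial junction and keratin genes 4 were at least 2-fold higher and 3 lower, at a median of 0.11. The higher members were the cadherin CDH3, the desmosomal plaque gene DSP at 315 and 3795, the desmosomal cadherin DSC2 at 283 and 1075, and the tight junction gene CLDN4 at 110.2 and 819. The lower ones were KRT80, a keratin gene, at 1810.2 untreated and 289 in spheres, and 2 plaque genes, PKP3 at 3186 and 1338 and JUP at 1899 and 874. CDH1, the cadherin that defines epithelia, was in the lowest quartile on both arrays, at 9.28 in spheres. The keratin gene KRT19 was dim as well, at 56.4 untreated and 66.9 in spheres. The epithelial markers EPCAM, KRT8 and KRT18 were past the level filter and short of 2-fold. EPCAM read 1509 untreated and 1319.95 in spheres, KRT8 22690.2 and 13910.5, and KRT18, the mean of 2 probe sets, 26114 and 18814. Of 18 integrin subunits 2 were at least 2-fold higher and 1 lower, with a median of 0.23. ITGA6, a laminin receptor subunit, went from 998 to 2115 and ITGB2, the leukocyte integrin chain, from 2882 to 1039.

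Of 13 genes of epithelial-mesenchymal transition 5 were at least 2-fold higher and 1 lower, at a median of 0.45. The repressor genes ZEB1 and ZEB2 differed in direction. ZEB1 was 2.50-fold higher, with 2407 untreated, 2180.0 at day 3 and 6009 in spheres, and ZEB2 2.68-fold lower, from 828 to 309. SNAI2 was 2.87-fold higher at 8812 and PRRX1, a homeobox factor of mesenchyme, 4.40-fold at 8206. SNAI1 read 956, 1994 and 874, so its day 3 value stood above both other arrays. Contractile and serum response factor (SRF) target genes had a median of -0.08, and all 3 members at least 2-fold higher, ACTA2, CNN1 and ACTG2, were not past the level filter.

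The factors YAP and TEAD and their targets, which respond to cell spreading and tension, read lower in 12 of 18 members, 4 of them by at least 2-fold, and 1 was at least 2-fold higher, at a median of -0.30. Besides ANKRD1, the junctional scaffold genes AJUBA and AMOTL2 read 4388 and 3999 untreated and 1577 and 1496 in spheres. CCN1, a matricellular protein gene, differed by -0.72 in log2, at 12445 and 7581. AMOTL1, related to AMOTL2, was 2.03-fold higher at 2175. The factor genes YAP1 and TEAD1 read 5526 and 3661 untreated and 5994 and 3278 in spheres.

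Prostaglandin and hyaluronan genes differed in both directions, with 4 of 19 at least 2-fold lower and 4 higher. Prostaglandin E2 is made from arachidonic acid by a cyclooxygenase and a terminal synthase and acts through G protein-coupled receptors. The inducible cyclooxygenase gene PTGS2 was 2.90-fold lower in spheres, with 993 untreated, 1884 at day 3 and 342 in spheres, so that day 3 and the spheres lay on opposite sides of the untreated value. PTGES, the terminal synthase, was 4.00-fold lower, from 896 to 224. The receptor genes PTGER2 and PTGER4 were 5.63-fold and 5.38-fold lower, from 1936 to 344 and from 1781 to 331. SLCO2A1, the prostaglandin uptake transporter, was 2.07-fold higher at 1565. PTGDS, which makes prostaglandin D2, read 38.3, 1203 and 596 and was not past the level filter. The other higher members were TNFAIP6 and the hyaluronan synthase gene HAS2, which was not past the filter.

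Genes that NF-kB induces to restrain itself read lower in spheres for all but 1 member, mostly by less than 2-fold. Of 15 NF-kB feedback genes 1 lay above 0, 2 were at least 2-fold lower and 0 higher, at a median of -0.43. TNFAIP3, which encodes the ubiquitin-editing inhibitor A20, was 3.03-fold lower, with 1034, 851 and 341 over the 3 arrays. NFKBIA, the classical inhibitor of NF-kB, read 4486 untreated and 3120.0 in spheres. Of 25 cytokine and chemokine genes 5 were at least 2-fold lower, 2 of these past the level filter, and 0 higher. Past the filter were 5 of the 25. IL6 was 2.96-fold lower, from 716 to 242, and CSF2, the GM-CSF gene, 2.29-fold lower, from 2439 to 1065, where day 3 read 3327. The chemokine genes CXCL2 and CXCL3 were 2.21-fold and 2.09-fold lower at low intensities, 94.6 and 55.6 in spheres.

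Genes of cholesterol efflux were higher, with smaller differences in cholesterol synthesis. ABCG1 and ABCA1 encode transporters that export cholesterol to lipoproteins and are known targets of the liver X receptors. ABCG1 read 286 untreated, 1997 at day 3 and 2889.6 in spheres, and ABCA1 read 1579, 3387 and 7025. STARD4, a cytosolic sterol carrier, was 2.20-fold higher, from 788 to 1730.2. Over the 24 genes of synthesis, uptake and efflux 19 lay above 0 and these 3 were past 2-fold, with 0 lower and a median of 0.22. The synthase gene HMGCS1 read 2458 and 4505. Of 19 genes of fatty acid synthesis and storage 2 were at least 2-fold higher and 3 lower, at a median of 0.08. The higher ones were fatty acid carriers. FABP3 went from 1570.4 to 6515 and FABP4 from 2284 to 8476, where day 3 had read 894. PPARG, the nuclear receptor that drives fat cell formation, was 4.13-fold lower, from 2782 to 673, and its partner CEBPA 3.95-fold lower, from 259.9 to 65.8, not past the level filter. CPT1A, of mitochondrial fatty acid uptake, was 2.26-fold lower at 512.

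Hypoxia-induced genes were higher in part. Hypoxia-inducible factors (HIF) bind a short core sequence near their targets, and the products of these targets adjust metabolism, blood supply and collagen folding to low oxygen. Of 22 genes 6 were at least 2-fold higher and 1 lower, at a median of 0.41. DDIT4, an inhibitor of mTOR signalling, read 3242 untreated, 5433 at day 3 and 10018 in spheres. NDRG1, a stress-response gene, read 3222, 5292 and 8575. PDK1, which limits pyruvate entry into mitochondria, was 2.42-fold higher at 2675, although day 3 read 663 against 1107 untreated. KDM3A, a histone demethylase gene, was 2.20-fold higher at 1176. EPAS1, which encodes HIF-2 alpha, was 4.20-fold lower, with 3928, 4072 and 935 over the 3 arrays. VEGFA, the angiogenic factor gene, read 7029 and 4463, short of 2-fold. HIF1A read 6196 and 5763. Glycolytic enzymes had a median of 0.10 with 1 of 20 members at least 2-fold higher, the glucose transporter gene SLC2A3 at 1968 and 4644.

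Promoter windows were read for the core that HIF binds, ACGTG or GCGTG on either strand. A window held 250 bases before and 50 after the first start listed for a gene in RefSeq's GRCh38.p14 table. Any other start of a gene was not read. Of the hypoxia list's 19 genes with a window 16 held it, 84.2%, against 65.5% of 7531 windows of genes past the level filter. The share was 58.2% among genes at least 2-fold higher and 62.0% among those at least 2-fold lower, and other lists were as high or higher, with 13 of 13 housekeeping genes and 88.2% of 17 cholesterol genes, so the core was not particular to the hypoxia list. Since so short a sequence is common, a match is a description and not a site. The core ACGTG also lies within the E-box CACGTG. Of 5 list members at least 2-fold higher with a window 3 held the core, and these are printed, in lower case with the matches in capitals, to show how many each has.

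DDIT4, chr10:72273674-72273973, plus strand: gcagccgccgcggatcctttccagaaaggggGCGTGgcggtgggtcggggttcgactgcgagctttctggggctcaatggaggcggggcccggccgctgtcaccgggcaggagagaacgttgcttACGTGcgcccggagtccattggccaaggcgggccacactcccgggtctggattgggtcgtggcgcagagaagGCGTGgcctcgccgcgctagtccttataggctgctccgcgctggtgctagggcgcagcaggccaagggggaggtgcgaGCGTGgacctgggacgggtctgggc

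P4HA1, chr10:73096817-73097116, minus strand: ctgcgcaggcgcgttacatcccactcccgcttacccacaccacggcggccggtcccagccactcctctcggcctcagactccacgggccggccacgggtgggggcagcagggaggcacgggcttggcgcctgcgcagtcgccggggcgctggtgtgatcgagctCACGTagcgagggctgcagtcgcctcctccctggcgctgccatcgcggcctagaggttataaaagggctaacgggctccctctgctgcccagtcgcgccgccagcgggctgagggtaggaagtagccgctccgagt

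KDM3A, chr2:86441121-86441420, plus strand: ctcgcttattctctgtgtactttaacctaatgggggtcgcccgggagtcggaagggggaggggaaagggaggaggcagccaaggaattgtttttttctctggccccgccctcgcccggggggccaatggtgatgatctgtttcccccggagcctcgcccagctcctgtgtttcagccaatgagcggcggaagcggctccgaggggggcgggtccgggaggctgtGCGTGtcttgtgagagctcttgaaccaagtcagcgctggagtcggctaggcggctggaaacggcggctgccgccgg

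DDIT4 had 4 matches, and P4HA1 and KDM3A had 1 each. The windows of PDK1 and P4HA2 held no match. Other motifs were read in the same windows, with no test. The AP-1 site TGANTCA was in 7.46% of 268 windows of genes at least 2-fold higher and 5.84% of 308 windows of genes at least 2-fold lower, against 4.26% of all past the filter. Over 13780 windows of measured genes, with no filter, its share was 5.58%. For the SMAD motif CAGACA the shares were 16.4%, 11.0% and 11.8%, and 14.1% with no filter. The metal response motif TGCNCNC was in 158 of the higher and 197 of the lower windows and in 63.9% of all past the filter. The sterol motif TCACNCCAC was in only 2 of the higher and 1 of the lower windows and in 1.02% of all past the filter.

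Of the developmental pathways, Notch had members on both sides. In Notch signalling a ligand on a neighbouring cell releases the receptor's inner part, which induces HES and HEY repressors. The list held 4 of 18 genes at least 2-fold higher and 2 lower, at a median of 0.37. The ligand gene JAG1 was 3.08-fold higher, from 1544 to 4763, while the ligands DLL4 and DNER were 6.08-fold and 4.93-fold lower, with 31.4 and 169 in spheres. The target HEY1 went from 1237 to 4136 and HES4 from 420.1 to 1731, with day 3 at 398. HEY2 was 7.25-fold higher at dim values, 14.6 and 106. HES1 and the receptor NOTCH2 read 10864 and 4285 untreated and 13453 and 4360.4 in spheres.

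Wnt genes had a median of -0.01 over 27 members, with 4 at least 2-fold higher and 2 lower. WNT5A, a ligand that acts mostly without beta-catenin, was 3.40-fold higher, with 1394, 3189 and 4745 over the 3 arrays. LEF1, the nuclear partner of beta-catenin, read 2075, 6901 and 6776. The secreted antagonist SFRP1 was 4.03-fold lower, from 6452 to 1599. FRZB, the Wnt antagonist gene given above, was not on this list and was 7.90-fold lower, from 779 to 98.7. In the Hedgehog list 0 of 14 genes passed 2-fold in either direction.

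HOX genes, the homeobox factors that mark position along the body axis, were lower as a list and unevenly across their clusters. Of 33 listed genes 8 were at least 2-fold lower, 5 of these above the filter, and 1 higher, at a median of -0.38. The lower genes all lay in the HOXB and HOXC clusters. HOXB5 read 1775 untreated, 1726 at day 3 and 426 in spheres. HOXC10 read 2529, 2730.0 and 745, HOXC13 866, 928 and 245, and HOXB6 4429.8, 4224 and 1685. In these 4 genes day 3 stood close to the untreated array and the spheres alone were low. Grouped by cluster, which was done after the values were seen, the median log2 difference was -0.32 in 10 HOXA genes, -0.79 in 10 HOXB genes, -0.74 in 9 HOXC genes and 0.27 in 9 HOXD genes. HOXD8 was the only measured HOX gene at least 2-fold higher, from 333 to 694, a log2 difference of 1.06 that was 0.93 with 64 added to each intensity. HOXC9 and HOXB7 of the same clusters differed by 0.18 and -0.31 in log2, so the lower values were not shared by every neighbour.

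**Figure D5:**
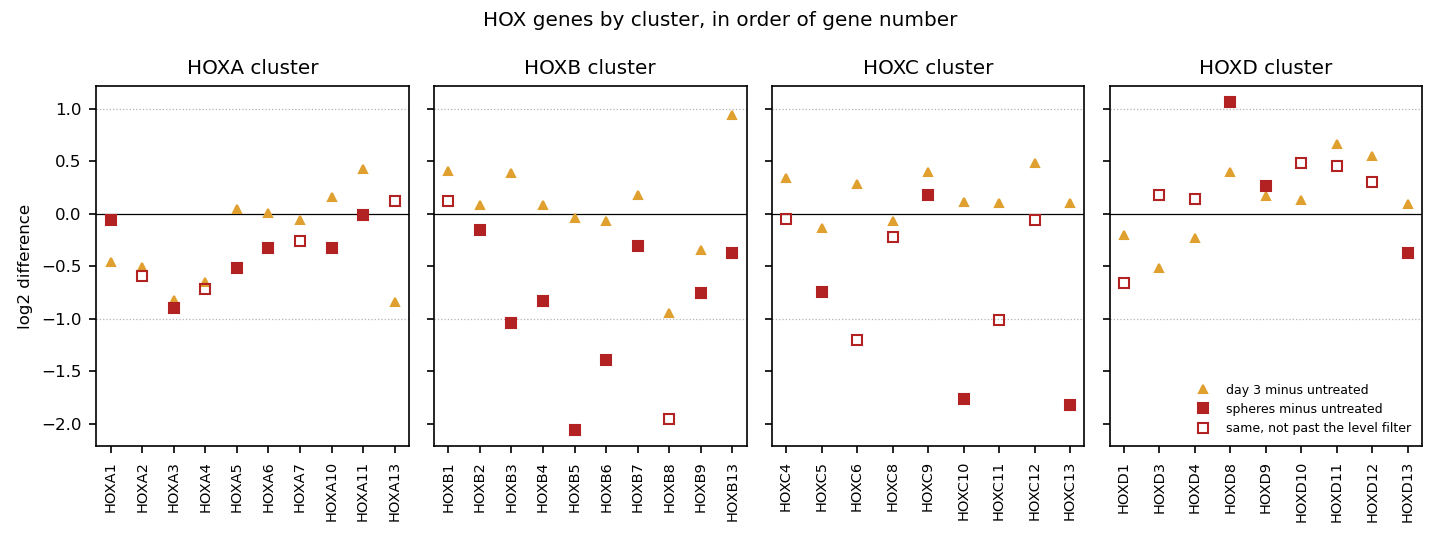
Log2 differences of all measured HOX genes against untreated cells, in order of gene number within each cluster, for day 3 (orange triangles) and day 5 spheres (red squares, open where not past the level filter), with dotted lines at 2-fold. Sphere values reach -2.06 at HOXB5 and -1.82 at HOXC13, while HOXD genes lie mostly above 0.

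Growth factor lists each held more members past 2-fold in the lower than in the higher direction. Among 14 EGF family genes 5 were at least 2-fold lower and 0 higher, at a median of -0.27, and 1 of the lower ones was past the filter. This was HBEGF, the heparin-binding ligand, with 5457 untreated, 1874 at day 3 and 1164 in spheres. Of 30 PDGF, FGF and VEGF family genes 3 were at least 2-fold higher and 5 lower. PDGFRB, the PDGF receptor of mural and stromal cells, was 4.47-fold higher, with 619, 5239.5 and 2769.6, and the lower members, such as FGF5 and KDR, all failed the level filter. In the insulin-like growth factor axis 3 of 19 genes were at least 2-fold higher and 4 lower. IGFBP7, a secreted binding protein, went from 5546 to 16074, and IGFBP6 and IGFBP4 from 5601 and 5832 to 1576 and 2250.3. PAPPA, a protease that cleaves IGFBP4, was 2.87-fold higher, from 239 to 686, while day 3 read 67.4.

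Endothelin genes differed in opposite directions. The ligand gene EDN1 was 5.55-fold lower, from 1959.8 to 353, and the receptor gene EDNRA 11.0-fold higher, with 79.4 untreated, 68.3 at day 3 and 874 in spheres. Both belong to a list of 19 endothelin, coagulation and plasminogen genes with 2 at least 2-fold higher and 3 lower. Among 31 axon guidance and neurotrophin genes 4 were at least 2-fold higher and 6 lower. The neurotrophin BDNF read 1014 untreated and 177 in spheres, the laminin-related NTN4 769 and 106, and the ephrin receptor EPHA4 454 and 1597.

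Stem cell genes did not share a direction. Of 18 pluripotency genes 5 were past the level filter, 0 at least 2-fold higher and 1 lower, the telomerase gene TERT at dim values of 150.4 and 39.7. POU5F1 read 115 untreated and 80.5 in spheres and NANOG 59.3 and 46.8, while SOX2, past the level filter, read 1558 and 2156, KLF4 938 and 691, and MYC 2946 and 2582. Of 23 cancer stem cell markers 2 were at least 2-fold higher, DCLK1 and ITGA6, and 4 lower, at a median of -0.32. The lower members included all 3 listed drug efflux pumps. ABCB1, which encodes P-glycoprotein, was 6.07-fold lower, with 2237 untreated, 1509.6 at day 3 and 369 in spheres. ABCC1 was 2.39-fold lower, from 951 to 397, and ABCG2, not past the level filter, 3.28-fold, from 286 to 87.3. MCAM, a surface adhesion molecule, went from 3938 to 1643, CD44 read 4317 and 4822, PROM1 35.7 and 23.7, and ALDH1A1 342 and 202.

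Lineage genes of the skeleton were higher for cartilage collagens. COL2A1, the main collagen of cartilage, read 121 untreated, 389 at day 3 and 719 in spheres, and COL9A3, another cartilage collagen, 985, 1918 and 2442. PTHLH, which encodes the parathyroid hormone-related protein, was 2.48-fold higher at 9548. The chondrocyte factor SOX9 read 12732 and 11559. Of 18 chondrocyte genes 4 were at least 2-fold higher, 3 of these past the level filter, and 1 lower, not past it. The dim ones were COL10A1, from 20.6 to 95.5, and the lower gene HAPLN1, from 62.3 to 13.9. Past the filter were 5 of the 18. Among 20 osteoblast genes 3 were at least 2-fold higher and 0 lower, at a median of 0.03: COL1A1, the homeobox gene DLX5 at 486 and 1029.7, and TNFRSF11B, the osteoclast-restraining decoy receptor, at 3693 and 9448.

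Circadian clock genes read mostly higher in spheres, by less than 2-fold in most cases. Of 16 genes 13 lay above 0, at a median of 0.54, and 2 were at least 2-fold higher. These were the related repressors BHLHE40, at 4226 untreated and 10634 in spheres, and BHLHE41, not past the level filter, at 84.3 and 478. PER2 and PER3, of the clock's negative limb, read 667 and 391 untreated and 1268 and 781 in spheres, short of 2-fold in both. The hour of harvest is not given in the sources used here, so its part in these values was not tested.

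Cell division genes stayed short of 2-fold, and most lay below 0. No member of the mitosis list (24 genes, median -0.12) or of the DNA replication list (23 genes, median -0.15) reached 2-fold. Above 0 were 7 genes of each list, and TK1 was 1.73-fold lower. All members were past the level filter. At high levels few genes pass 2-fold, 4.30% in the eighth class by level and 0.524% in the brightest. The lack of calls is therefore not particular to these lists. MKI67 read 1414 and 874, and CDK1, the mitotic kinase, 9663 and 12869. The CDK inhibitor gene CDKN1A was 2.46-fold higher, with 2035, 4391 and 5014 over the 3 arrays, and was the only one of 19 genes in its list past 2-fold. In the BCL2 family, which decides between survival and death, BBC3, the gene of the death-promoting protein PUMA, was 3.35-fold higher, from 1189 to 3981, and BCL2L1, the gene of the protective BCL-XL, 3.57-fold lower, from 3334 to 933. Over 19 members of that family 2 were higher and 2 lower.

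Interferon-stimulated genes were higher in 5 of 20 members by at least 2-fold, 2 of these above the filter, and lower in 0. IFI44 read 731, 2629 and 2734, and OASL, a member of the oligoadenylate synthetase family, 399.9, 2606 and 1289. No gene of MHC class I presentation passed 2-fold among 17. Immediate early genes, which growth factors and stress induce within minutes, had a median of 0.890 at day 3 and -0.07 in spheres, with 4 of 21 at least 2-fold higher and 3 lower in spheres. EGR2, a zinc finger factor gene, was 4.11-fold higher, from 279 to 1148. FOS read 2118, 18729.9 and 974, FOSB 86.8, 2556 and 84.2, and ATF3 387, 3396 and 322. KLF2, a shear- and statin-responsive factor, was 5.13-fold lower in the spheres, from 2014 to 392, with 1971 at day 3. Of 16 ERK feedback genes 1 was at least 2-fold lower, the Sprouty gene SPRY1 at 1716, 726 and 334.

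Markers of other cell types were mostly under the level filter, and their part in the results was not tested. The summed intensity of 10 endothelial markers was 1074 untreated and 662 in spheres, with 0 past the level filter, 6 in the lowest quartile on both arrays and CDH5 at 109.7 and 118. Its members past 2-fold were ESAM, from 610.3 to 148, KDR, from 55 to 8.64, and PECAM1, from 65.6 to 171. For 11 macrophage and osteoclast markers it was 4110.3 and 3461, CD68 being the only one past the level filter, while PTPRC, which marks all blood cells, read 21.4 and 18.5. Under the filter, the osteoclast phosphatase gene ACP5 and the receptor gene CSF1R were 4.64-fold and 3.74-fold higher, at 259 and 234 in spheres, and CD14 was 2.54-fold lower. For 10 lymphocyte markers the sums were 1298 and 1203, with NKG7, under the filter, at 97.4 and 328 and CD3D, past it, at 766 and 375. Of 10 fibroblast and pericyte markers 4 were at least 2-fold higher, PDGFRB and CSPG4 past the level filter and FAP and COL3A1 not, with sums of 3965 and 7773, and DCN and LUM were at 23.6 and 31.0 in spheres. Neural markers summed to 20129 and 21878, with 3 of 10 past the level filter, and skeletal muscle markers to 8385 and 9262, with 4 of 9 past it. These 4 were ACTA1 at 3030.5 untreated and 3684 in spheres, TNNT1 at 2849 and 3337, CKM at 1532 and 1606, and MYH3 at 709 and 358. Housekeeping genes had a median difference of 0.03, with none of 17 past 2-fold.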

How the data were processed

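Total RNA of each group was labelled with Cy3 and hybridised to 1 array. The deposited values are intensities on a linear scale, summarised per probe set by the authors with RMA (robust multi-array average), per the submitters' processing notes; the sources used here state no settings for it. RMA is usually fitted over all arrays of a set, in which case the day 3 array also bears on the values, and the part of a low intensity that is background is unknown. Of 45033 probe sets 18188 were named by GEO's platform annotation, with symbols updated by gene ID, 678 by RefSeq accession, and 26167 stayed unnamed. Log2 intensities were averaged over the probe sets of a gene, so an intensity of such a gene is a geometric mean, and the untreated value was subtracted from the sphere value.

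No test was run, since each group is 1 array and precision is limited by that number. A call is a difference of at least 2-fold. Genes named in the text were the 20 highest and 20 lowest differences past the level filter, the same among genes at the median on both arrays (in both, only where all probe sets of a gene differed in 1 direction, without provisional symbols and olfactory receptors), up to 6 members of each of 55 gene lists with the largest differences, and a fixed set of lineage, stemness and pathway genes. The members and lists were chosen with earlier results of these data known. The following lie outside the rule and were chosen after their values were seen: ATF3, BMP4, BMP7, CDH5, CGB1, CGB2, CGB3, CGB5, CGB7, DCN, EPCAM, EPHA4, FOS, FOSB, GREM1, HAS2, HES1, HIF1A, HOXB7, HOXC9, HOXD8, ID3, JUP, KDM3A, KRT8, KRT18, KRT19, LOX, LOXL1, NOTCH2, PMEPA1, PTPRC, SLCO2A1, SMAD1, SMAD3, SOX9, SP7, TEAD1, TGFBR3 and YAP1. Of 1010 listed genes 994 were measured. A few genes that the rule or the marker lists name are not reported here. Promoter windows came from RefSeq's GRCh38.p14 table, with only the first listed start of a gene used. Alternatives were other level filters, fold limits of 1.50 and 3, 64 added to each intensity, the brightest or the median probe set, array medians centred, and quantile normalization. The calling code was tested on simulated data with planted differences. Computation used Python 3.11.15, numpy 2.4.6, pandas 2.3.3 and matplotlib 3.10.9.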

Additional observations from a re-analysis of the deposited data

Results flagged for a closer look

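Signal lay in probe sets that no comparison of genes used. Among 11473 probe sets that could not be named from the tables used here and that reached the level filter, 451 (3.93%) were at least 2-fold higher in spheres and 460 (4.01%) at least 2-fold lower. The corresponding shares of named genes were 3.83% and 4.37%. The unnamed probe sets were not analysed further.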

How the results depend on the processing

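The counts of genes at least 2-fold higher (346) and lower (395) depended on the level filter and on the fold, by the construction of both. With no level filter they were 842 and 860, with the filter set at the upper quartile 92 and 93, and with both arrays required to reach the median 156 and 184. At 1.5-fold they were 827 and 1125, and at 3-fold 135 and 127. Under the brightest or the median probe set, centred array medians, quantile normalization, 64 added to each intensity, or a filter over all 3 arrays (the last chosen after seeing the data), both counts stayed within 1.5 times these values. The share of higher genes among those called was 46.7% and ranged from 42.4% to 51.5%. Of 383 named genes 231 were past 2-fold, and 34 no longer were with 64 added, among them AKR1B10, AMOTL1, CD3D, COL3A1, CSPG4, CXCL2, CXCL3, DLX5, FAP, HSPA4L, HSPB8, KDR, PECAM1 and SMAD7. Of the genes outside the naming rule CGB2, HAS2, HOXD8 and SLCO2A1 also lost it. None of the 231 named genes past 2-fold changed sign with 64 added, the brightest or median probe set, centred array medians or quantile normalization. Sign was checked for the named genes only. For a gene with 1 probe set, adding 64 or choosing among probe sets cannot reverse a sign, so this outcome says little. The median of the cancer stem cell markers was -0.32 over all members and 0.16 over those past the upper quartile filter, where fewer genes remained. List medians moved by 0.2 or more in 4 lists with 64 added and in 15 with both arrays required to reach the median. With the upper quartile filter they did so in 17 lists besides the cancer stem cell markers. Lists with no member left under a filter were not read. No paired analysis was possible because each group is 1 array.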

Other observations

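Stress and housekeeping lists held few members past 2-fold. Over all genes past the level filter 3.83% were higher and 4.37% lower, so few calls are not particular to these lists. Of 22 genes of amino acid and endoplasmic reticulum stress 1 was at least 2-fold lower, CHAC1, a glutathione-degrading enzyme, with 3298 untreated, 1273 at day 3 and 1116 in spheres. Among 14 heat shock genes 2 were at least 2-fold lower, HSPA4L, a chaperone gene, at 1619 and 783, and HSPB8, not past the level filter. No metallothionein among 11 and no gene of oxidative phosphorylation among 20 reached 2-fold, with medians of 0.17 and 0.08. Of 17 targets of the oxidative stress factor NRF2 1, AKR1B10, was at least 2-fold lower and not past the level filter.

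Histone genes had a median of 0.04 over 15 members. H2BC21, a histone H2B gene whose transcript is also polyadenylated, was 3.25-fold higher, with 913 untreated, 2251 at day 3 and 2966 in spheres. Among 21 ion channel genes 5 were past the level filter. KCNJ2, an inward rectifier potassium channel, was 4.66-fold lower, with 2069, 391 and 444 over the 3 arrays, and the 3 channel genes at least 2-fold higher were all under the filter. Of 11 adipocyte genes 2 were at least 2-fold higher and 2 lower, and ADIRF, an adipogenesis-linked gene, read 309.8, 517 and 808.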
